A study of Homo sapiens with 6 samples.

Results

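The DDX and DHX genes measured here encode RNA helicases, and they were chosen by symbol: 117 of the 54675 probe sets on the array named a single gene whose symbol begins with DDX or DHX and a digit, after 11 probe sets with such symbols, among them those of non-coding and Y-linked genes, were left out. These probe sets stood for 50 of 19775 genes, 34 with DDX symbols and 16 with DHX symbols. Another 7 probe sets that named a helicase gene together with other genes were not used. RNA came from RL cells, an established human B lymphoid line with the translocation typical of follicular lymphoma. The cells were grown either as MALC, multicellular aggregates of these lymphoma cells collected after 10 days (3 samples), or in suspension and collected during exponential growth (3 samples). No treatment was given to either group, and all samples stem from this single cell line. The deposited values were linear signal intensities, and the comparison sets growth as aggregates against growth in suspension. It also sets cells collected after 10 days against cells in exponential growth, so culture form, culture time and growth phase cannot be told apart.

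DEAD-box helicases (DDX) and DEAH-box helicases (DHX) are named for the amino acids of a motif that binds and hydrolyses ATP. They use ATP to open short RNA duplexes or to strip proteins from RNA, and each acts at particular steps: assembly of ribosomal subunits in the nucleolus, the ordered rearrangements of the spliceosome, export of mRNA through nuclear pores, translation and mRNA decay. Growing lymphoid cells make ribosomes at a high rate, and several nucleolar helicases are known as part of that programme. DHX58 and DDX60 belong instead to the antiviral response to foreign RNA.

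Most helicase transcripts were lower in MALC. Of 50 genes, 44 passed the filter on low signal, 33 of them fell, 4 rose and 7 did not pass the test (limma with Benjamini-Hochberg adjustment over 13765 genes, threshold 0.05). The calls covered 37 of 44 helicase genes, 75% lower and 9.09% higher, while 42.7% of all genes tested were called, 23.7% lower and 19% higher. The median log2 change was -0.39 over the 44 genes and -0.064 over all genes tested. The falls were moderate: 17 of the 33 were at least 0.5 on the log2 scale, with DHX9 the largest at -0.82. None reached 2-fold in limma, against 0.799% of all genes called and at least 2-fold lower and 2.78% at least 2-fold higher, and no helicase gene did at an unadjusted p either. In 37 of the 44 genes the signals of the groups did not overlap, against 56.9% of all genes tested. A stricter filter, at the 60th percentile, left 43 of the 44 helicase genes, of which 33 (76.7%) were lower, against 30.7% of all 10004 genes past it. In bulk RNA, fewer cells that express a gene and less RNA per cell cannot be told apart. All changes were taken from log2(signal + 16), so those of dim genes are understated.

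**Figure D1:**
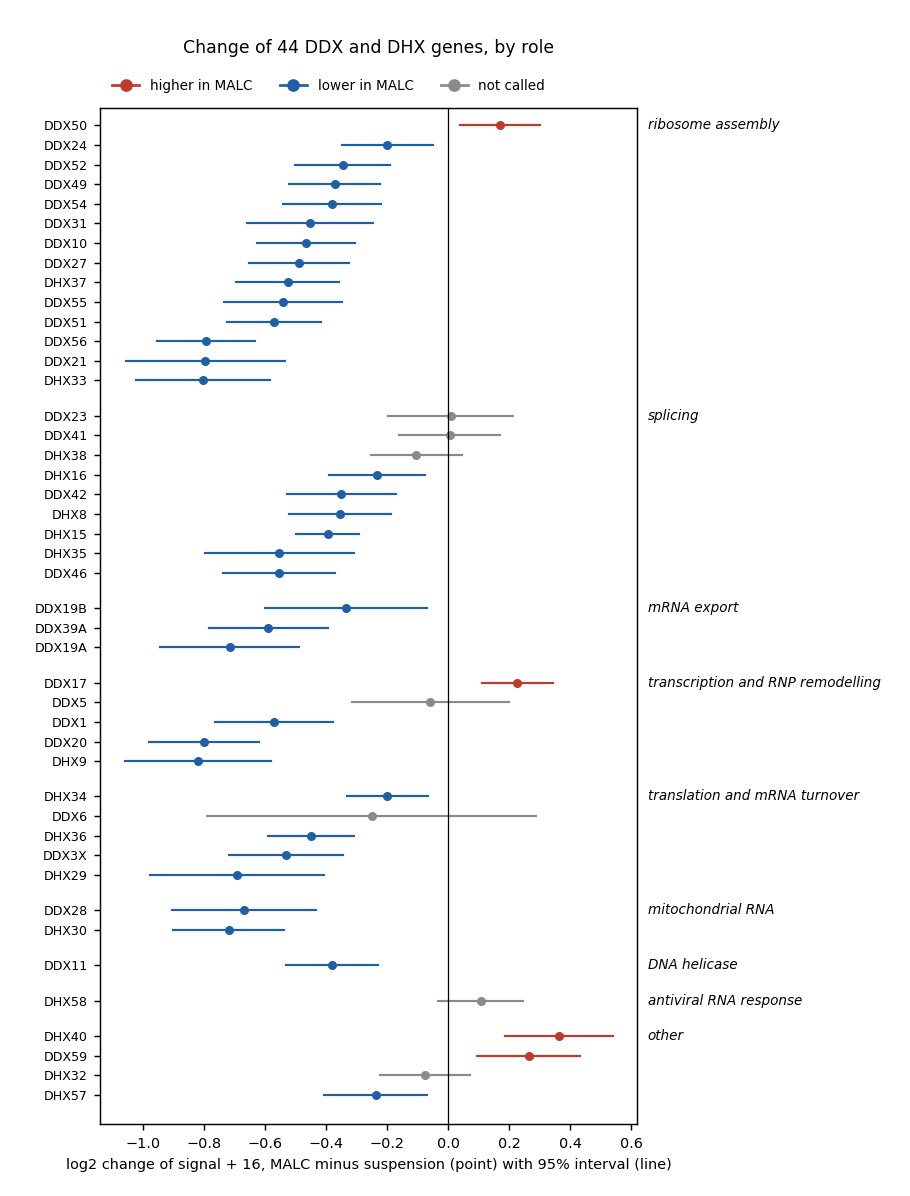
Change of each of the 44 helicase genes that passed the filter (points, log2 of signal + 16, MALC minus suspension, with 95% intervals from limma as lines), in blocks by role. The 33 genes that fell lie left of 0 in every block except the antiviral one, and the 4 that rose, DHX40, DDX59, DDX17 and DDX50, lie between 0.17 and 0.36.

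**Figure D2:**
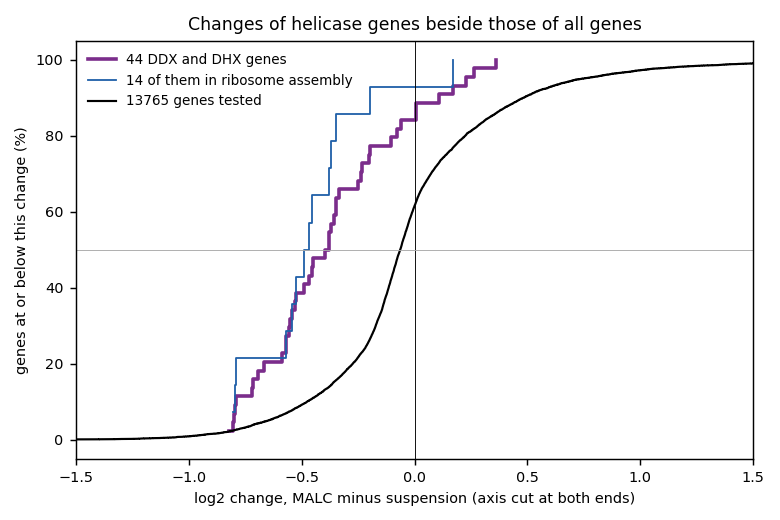
Share of genes (vertical axis, percent) at or below each log2 change (horizontal axis, MALC minus suspension) for the 44 helicase genes, the 14 of them in ribosome assembly and the 13765 genes tested. The helicase curves lie left of the curve of all genes, with medians of -0.39, -0.48 and -0.064.

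Median signals of the 6 arrays lay between 80.7 and 81.7, and precision is limited by how few arrays there are. The cells carried B cell markers, with mean signals of 5 listed genes (MS4A1, PAX5, CD79B, CD22 and CD79A) from 2861 to 12586 in MALC and 3272 to 13174 in suspension, whereas 3 T cell and 3 myeloid markers had means of 23.5 to 97.9 in MALC and 24.7 to 105 in suspension. Summed signals of 3 stromal collagens were 331 to 367 in MALC and 377 to 805 in suspension, with COL1A2 at 46.3, 46 and 54.2 in MALC 1, 2 and 3, against 54.1, 347 and 127 in suspension 1, 2 and 3 (adjusted p = 0.0806 by limma); their part in the results was not tested. ACTB control probe sets, whose ratio of 3′ to 5′ signal rises as RNA degrades, gave ratios of 1.22 to 1.33 in MALC and 1.31 to 1.54 in suspension. For GAPDH the ratios were 1.01 to 1.02 in MALC and, in suspension, 1.04 to 1.06; the part of RNA quality was not tested. Samples 2 and 3 of a group were closely alike (Pearson r across probe sets 0.998 in MALC and in suspension), and sample 1 correlated with them at 0.991 to 0.992. Whether the samples are separate cultures is not in the labels, so every p-value rests on a spread between samples that may be technical. With only the array numbered 1 left in suspension the median log2 change was -0.385 over the helicase genes and -0.0866 over all genes tested. With only that one left in MALC the medians were -0.351 and -0.0535. Both alternatives were chosen after seeing the data, and their fits assume that the lone array varies like the other group.

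Helicases of ribosome assembly made up the largest group, and 13 of 14 fell, 1 rose, with a median log2 change of -0.48. The share that fell was 92.9%, against 75% of the 44 helicase genes and 23.7% of all genes tested. DHX33, which acts in the nucleolus on transcription of ribosomal RNA, had signals of 663, 598 and 535 in MALC 1, 2 and 3, against 1123, 1003 and 1037 in suspension 1, 2 and 3. All MALC arrays lay below all suspension arrays, with a log2 change of -0.80 (95% interval -1.02 to -0.59, adjusted p = 0.000728 by limma). DDX21, a nucleolar helicase of ribosomal RNA transcription and processing, reached 9462, 7450.2 and 6813 in MALC 1, 2 and 3, against 12973, 13655 and 14209 in suspension 1, 2 and 3. The groups were again apart, although MALC 1 stood nearer to suspension than MALC 2 and MALC 3, and the level in MALC was 1.74-fold lower (adjusted p = 0.00136 by limma). DDX56, which acts in assembly of the large subunit, had signals of 1009, 1047 and 934 in MALC, against 1697, 1776 and 1737 in suspension. The log2 change of -0.79 had the smallest adjusted p of all helicase genes (0.000301 by limma). The dimmer DDX56 probe set gave -0.048, with overlapping groups (adjusted p = 0.658 over probe sets, limma). With the mean of the DDX56 probe sets the change was -0.42.

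Further large-subunit factors were also lower in MALC, by smaller amounts. DDX51, needed for maturation of the large subunit, averaged 391 ± 19.7 in MALC and 588 ± 3.12 in suspension (SD, n = 3 each), with a log2 change of -0.57; its dimmer probe sets gave -0.26 and -0.13, the last not past the threshold. DDX55, the relative of the yeast factor Spb4, averaged 508 ± 45.4 in MALC and 745 ± 25.6 in suspension. DDX27 was 1.40-fold lower, at 1075 ± 32.4 in MALC and 1515 ± 88.9 in suspension, and DDX31, the relative of yeast Dbp7, 1.37-fold. None of these genes had overlapping groups. DDX54 and DDX24, related to the yeast large-subunit factors Dbp10 and Mak5, had log2 changes of -0.38 and -0.20. The DDX24 call was lost in limma without any single array except MALC 1, with adjusted p of 0.0767 to 0.142, and under quantile normalization (0.0573).

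Among factors of the small subunit, DHX37, which releases the U3 RNA from the precursor, had signals of 338, 327 and 308 in MALC, against 461, 456 and 506 in suspension. Its groups were well apart (log2 change -0.53, adjusted p = 0.00128 by limma). DDX10, a helicase of the same early precursor, was 1.38-fold lower (2545 ± 171 in MALC against 3518 ± 142 in suspension). DDX49 and DDX52, related to the yeast small-subunit factors Dbp8 and Rok1, were 1.29- and 1.27-fold lower. All 3 DDX52 probe sets fell, but by unequal amounts, with log2 changes of -0.91, -0.58 and -0.35, the last from the brightest probe set that stood for the gene.

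DDX50, the close relative of DDX21 in the nucleolus, went the other way at its brightest probe set, with 2457, 2503 and 2432 in MALC 1, 2 and 3, against 2224, 2223 and 2119.6 in suspension 1, 2 and 3. These groups did not overlap, and the rise of 0.17 on the log2 scale was just past the threshold (adjusted p = 0.0421 by limma). Log2 changes at the dimmer DDX50 probe sets were -0.28 (adjusted p = 0.0662 over probe sets, limma) and -0.071 (0.431), so the direction turned with the mean of the probe sets (-0.06, adjusted p = 0.421 by limma). DDX50 also failed to pass when MALC 2 (adjusted p = 0.148), MALC 3 (0.0868), suspension 2 (0.105) or suspension 3 (0.156) was left out, and with no filter on low values (0.0548). The DDX21 change minus the DDX50 change was -0.97 on the log2 scale, larger than the SD of the log2 ratio within MALC (0.24) and suspension (0.10). In an exact two-sided permutation test this gave p = 0.1, the smallest that 3 against 3 allows, as it did for 2 other pairs of relatives (Benjamini-Hochberg adjusted p = 0.1 for each of the 3).

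**Figure D3:**
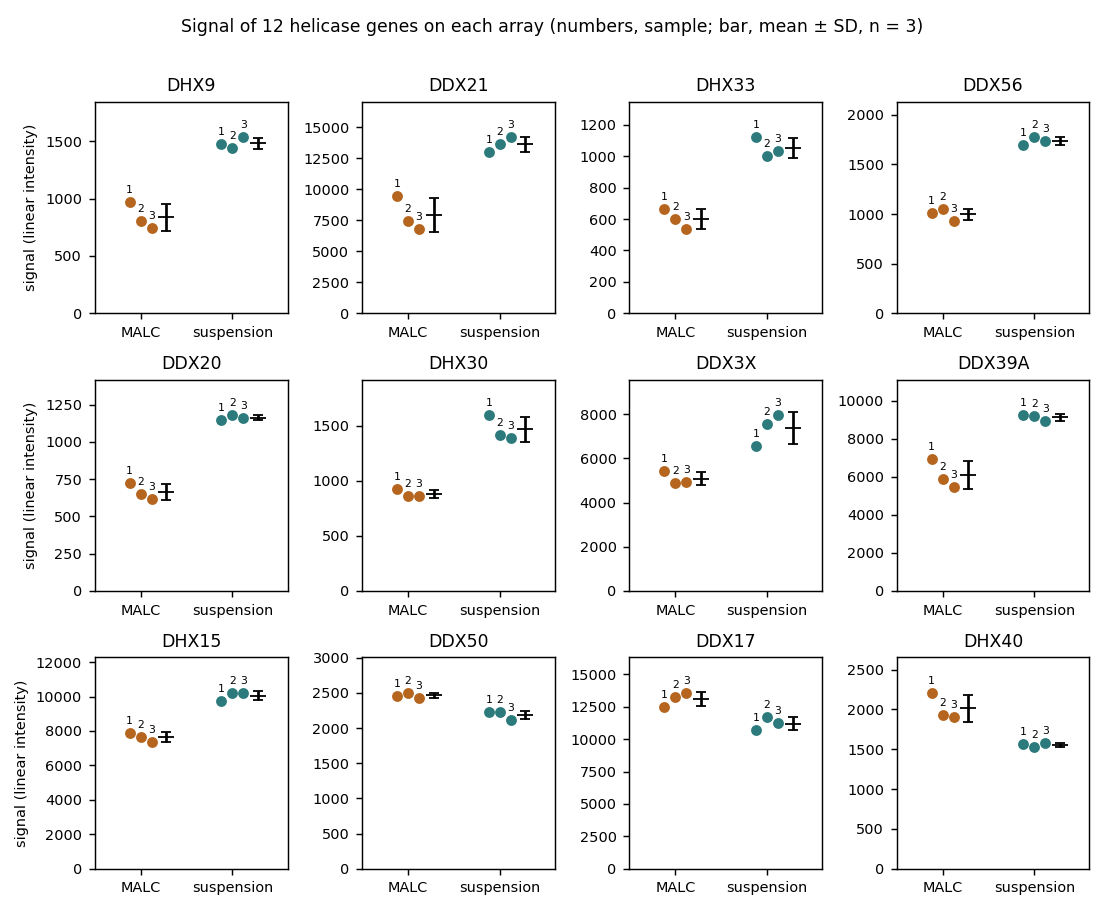
Signal (linear intensity, vertical axes from 0) of 12 helicase genes on each array, MALC left and suspension right, with sample numbers over the points and the mean ± SD (n = 3) as bars. MALC lies below suspension in the first 9 panels and above it in those of DDX50, DDX17 and DHX40.

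DDX21 and DDX50 are neighbours among the protein-coding genes of chromosome 10, and the promoters of several nucleolar members are shown here because members of this group moved together while these neighbours parted at the probe sets above. The sequences are from RefSeq (GRCh38.p14), 250 bases before the first listed start, 5′ to 3′ on the gene's strand. Capitals mark CCGGAAG, the core bound by ETS factors, or CACGTG, the E-box bound by MYC and its relatives, on either strand.
DDX21: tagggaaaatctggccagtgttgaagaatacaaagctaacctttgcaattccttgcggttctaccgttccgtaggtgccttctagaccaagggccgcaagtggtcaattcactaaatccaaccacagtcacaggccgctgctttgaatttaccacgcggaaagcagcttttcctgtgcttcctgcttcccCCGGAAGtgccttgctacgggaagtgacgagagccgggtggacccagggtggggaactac
DDX50: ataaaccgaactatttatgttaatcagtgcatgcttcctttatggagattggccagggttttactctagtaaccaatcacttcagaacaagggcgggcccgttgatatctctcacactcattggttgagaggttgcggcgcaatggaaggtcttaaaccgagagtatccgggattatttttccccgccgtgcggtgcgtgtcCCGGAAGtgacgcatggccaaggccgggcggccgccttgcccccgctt
DDX56: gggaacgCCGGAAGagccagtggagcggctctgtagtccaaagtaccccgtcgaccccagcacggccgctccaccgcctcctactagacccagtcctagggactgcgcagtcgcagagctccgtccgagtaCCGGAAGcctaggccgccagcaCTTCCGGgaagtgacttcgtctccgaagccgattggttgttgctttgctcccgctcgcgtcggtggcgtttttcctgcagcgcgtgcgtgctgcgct
DDX31: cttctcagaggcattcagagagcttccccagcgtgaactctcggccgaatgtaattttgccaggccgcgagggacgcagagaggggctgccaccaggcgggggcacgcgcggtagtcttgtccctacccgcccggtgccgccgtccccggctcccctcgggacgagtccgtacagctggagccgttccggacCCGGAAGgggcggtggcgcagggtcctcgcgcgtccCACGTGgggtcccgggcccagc
DDX54: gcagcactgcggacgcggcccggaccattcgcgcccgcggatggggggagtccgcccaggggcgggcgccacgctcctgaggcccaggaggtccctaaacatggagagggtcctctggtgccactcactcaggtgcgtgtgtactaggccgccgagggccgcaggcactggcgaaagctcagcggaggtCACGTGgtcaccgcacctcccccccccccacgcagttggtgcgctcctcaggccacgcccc
They lie at chr10:68955920-68956169 (+ strand), chr10:68901065-68901314 (+ strand), chr7:44573909-44574158 (- strand), chr9:132669984-132670233 (- strand) and chr12:113185479-113185728 (- strand), in this order. DDX21 and DDX50 each hold 1 CCGGAAG, DDX56 holds 3, DDX31 holds 1 of each motif, and DDX54 holds 1 CACGTG and no CCGGAAG in this stretch. Promoters were listed for 46 of the 50 genes, and the motifs, chosen with the changes known, were searched in windows of 250 bases before to 50 after the start. For the 10 members with more than 1 listed promoter, only the first was searched. CCGGAAG occurred in 18 of the 46 windows (39.1%), against 18% of the 10941 tested genes with a listed promoter and 10.7% of all 27305 promoters. CACGTG occurred in 8 (17.4%), against 9.9% and 7.43%. The hypoxia response core ACGTG, which CACGTG contains, occurred in 13 (28.3%), against 25.8% and 21.6%. Of the 30 members that fell and had a promoter, 15 held CCGGAAG, 5 CACGTG and 9 ACGTG. Of the 4 that rose, 1 held CCGGAAG, 1 CACGTG and 2 ACGTG. Among the 11 ribosome assembly members with a promoter, 6 held CCGGAAG, 3 held CACGTG and 4 held ACGTG. The promoters printed above all hold a match, so they do not stand for the whole group. These matches are descriptions of letters in a window and were not tested.

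Splicing helicases split into genes that fell and genes that did not pass. Of 9, 6 fell (66.7%, against 75% of the 44 helicase genes and 23.7% of all genes tested) and none rose. The median log2 change was -0.35 (limma, with 0 higher at an unadjusted p under 0.05). DHX15, which takes spent spliceosomes apart, had signals of 7908, 7659 and 7374 in MALC 1, 2 and 3, against 9758, 10228 and 10187 in suspension 1, 2 and 3. Its log2 change was small, -0.39 with a 95% interval of -0.50 to -0.29, and its second probe set gave -0.40. DDX46, the relative of yeast Prp5 that acts at branch point recognition, was 1.47-fold lower (1829 ± 150.0 in MALC and 2691 ± 144 in suspension). DHX35, a protein of the active spliceosome, was lower by the same factor, at 309.7, 268 and 264 in MALC, against 482, 397 and 383 in suspension, where suspension 1 stood highest.

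DHX8, which releases the spliced mRNA, and DDX42, a partner of the complex that binds the branch point, fell with log2 changes of -0.36 and -0.35. DHX16, the relative of yeast Prp2 that activates the spliceosome, had a change of -0.23 whose call was lost without any single array except MALC 1 (adjusted p 0.0513 to 0.0843 by limma). DDX23, the relative of yeast Prp28, had 816, 889 and 908 in MALC, against 778, 907 and 919 in suspension, and the arrays numbered 1 were the lowest of both groups. Its log2 change of 0.0078 had a 95% interval of -0.20 to 0.21. DDX41, a spliceosome helicase mutated in some myeloid neoplasms, had a change of 0.0048 (interval -0.16 to 0.17) and overlapping groups. DHX38, the relative of yeast Prp16, had 546, 527 and 526 in MALC, against 564, 595 and 564 in suspension; these groups did not overlap, but the change of -0.10 did not pass (adjusted p = 0.22 by limma, 0.0311 with array weights).

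All 3 measured helicases of mRNA export fell, DDX19B marginally, against 75% of the 44 helicase genes and 23.7% of all genes tested. DDX39B was not among the members. DDX39A, a nuclear helicase that loads export factors on mRNA, had signals of 6939, 5875 and 5479 in MALC 1, 2 and 3, against 9264, 9218 and 8928 in suspension 1, 2 and 3. The groups were far apart, with a 1.50-fold lower level in MALC (adjusted p = 0.00142 by limma). DDX19A, which remodels mRNA-protein complexes at the outer face of the nuclear pore, averaged 510.2 ± 61.8 in MALC and 845 ± 49.8 in suspension, and its kept probe sets gave -0.72 and -0.74 on the log2 scale. DDX19B, its neighbour on chromosome 16 with the same task, had 196, 184 and 176 in MALC, against 196, 266 and 258 in suspension. There suspension 1 lay within the range of MALC, the call was marginal (log2 change -0.34, adjusted p = 0.0465 by limma), and it did not pass once sample number was blocked (adjusted p = 0.0538). It was also lost without MALC 2 (0.118), MALC 3 (0.132), suspension 2 (0.138) or suspension 3 (0.137). Median centring (0.0505), no filter (0.0593) and leaving out _s_at and _x_at probe sets (0.0504) ended it as well. Probe sets of these near-identical genes may share signal.

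Helicases of transcription and of RNA-protein remodelling held both the largest fall and a rise. DHX9, a nuclear helicase that resolves RNA structures and acts as a cofactor of RNA polymerase II, had signals of 971, 801 and 743 in MALC 1, 2 and 3, against 1475, 1441 and 1537 in suspension 1, 2 and 3. MALC 1 lay nearest to suspension without overlap, and all 3 DHX9 probe sets fell, with log2 changes of -1.04, -0.82 and -0.65. DDX20, the gemin of the SMN complex that helps to assemble spliceosomal snRNPs, had 722, 647 and 616 in MALC, against 1144, 1181 and 1162 in suspension. It was 1.74-fold lower (adjusted p = 0.000405 by limma), and its dimmer probe set had the largest fall of any helicase probe set (-1.08). DDX1, a subunit of the tRNA ligase complex, averaged 3954 ± 344 in MALC and 5881 ± 471 in suspension, a log2 change of -0.57.

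DDX17, a coregulator of transcription and splicing, rose, with signals of 12501, 13236 and 13594 in MALC 1, 2 and 3, against 10674, 11700.4 and 11232 in suspension 1, 2 and 3. The change of its brightest probe set was 0.23 (adjusted p = 0.00847 by limma), while those of its 4 dimmer kept probe sets were 0.86, 0.62, 0.29 and 0.22, the last not past the threshold. No DDX17 probe set was lower. Its close relative DDX5 had 559, 686 and 658 in MALC, against 579, 692 and 714 in suspension at its single probe set with 1 symbol, with overlapping groups and a 95% interval of -0.31 to 0.20 on the log2 scale. The DDX17 change minus the DDX5 change was 0.29, against SDs of the log2 ratio of 0.10 in MALC and 0.11 in suspension (exact permutation p = 0.1).

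Of 5 helicases of translation and mRNA turnover, 4 fell (80%, against 75% of the 44 helicase genes and 23.7% of all genes tested). None rose (limma, with 0 higher at an unadjusted p under 0.05). DDX3X, which helps ribosomes to start on structured leaders and is recurrently mutated in B cell lymphomas, had signals of 5418, 4889.6 and 4926 in MALC 1, 2 and 3, against 6573, 7560.5 and 7963 in suspension 1, 2 and 3. The groups did not overlap, with suspension 1 the lowest of its group (log2 change -0.53, adjusted p = 0.00183 by limma). Dimmer kept DDX3X probe sets gave -0.55, -0.29 and -0.25, the last not past the threshold (adjusted p = 0.0618 over probe sets, limma). DHX29, which helps the scanning small subunit through stable structures, was 1.62-fold lower at 925, 749.5 and 682 in MALC, against 1404, 1185 and 1227 in suspension. DHX36, which unwinds G-quadruplexes, was 1.37-fold lower (1715 ± 69.6 in MALC and 2348 ± 46 in suspension), with 3 of 4 kept probe sets past the threshold. The remaining one, DHX36's only probe set that is not an _s_at, gave an adjusted p of 0.0516 where it stood for the gene (limma). DHX34, a factor of nonsense-mediated decay, fell with a log2 change of -0.20, which did not pass (adjusted p 0.0712 to 0.0909) when MALC 2, MALC 3, suspension 2 or suspension 3 was left out.

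DDX6, a translation repressor and decapping activator of P bodies, had widely spread groups. Its signals were 2568, 1393 and 1840.4 in MALC 1, 2 and 3, against 1739, 2545 and 2515 in suspension 1, 2 and 3. MALC 1 lay just above suspension 2 and 3, and suspension 1 lay between MALC 2 and MALC 3, so that the groups overlapped (log2 change -0.25, interval -0.79 to 0.29, adjusted p = 0.41 by limma). Between arrays of the same number the difference was 0.56 for number 1, -0.86 for number 2 and -0.45 for number 3. Without both arrays numbered 1 the change was -0.65 (adjusted p = 5.82e-06 by limma, over arrays 2 and 3 of each group), and with array weights it was -0.71 (0.00105). Arrays 2 and 3 of a group were closely alike across probe sets, so the first of these p-values rests on a spread that may be technical. DDX6 itself differed between MALC 2 and MALC 3, at 1393 and 1840.4. A dimmer DDX6 probe set was lower in all MALC arrays (-0.87, adjusted p = 0.0176), and another gave -0.043 (0.809).

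Both measured helicases of mitochondrial RNA fell, against 75% of the 44 helicase genes and 23.7% of all genes tested. DHX30, which acts in assembly of the mitochondrial ribosome, had 926, 864 and 861 in MALC, against 1598, 1412 and 1391 in suspension. DDX28, of the mitochondrial large subunit, had 404, 408 and 349 in MALC, against 549, 664 and 663 in suspension. Neither had overlapping groups, and the levels were 1.65- and 1.59-fold lower in MALC. Of 4 kept DDX28 probe sets, 3 fell. Of 6 kept DHX30 probe sets, 2 fell (-0.72 and -0.64) and 4 had changes of -0.16 to -0.046 that did not pass. DDX11, a DNA helicase of sister chromatid cohesion, was 1.30-fold lower (815 ± 11.7 in MALC and 1067 ± 43.8 in suspension); its probe sets can share signal with near-identical copies of the gene.

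The antiviral members, DHX58, DDX60 and DDX60L, were dim. DDX58 was left out when members were chosen, and its level is not given here. DHX58, which encodes the RNA sensor regulator LGP2, had 116, 124 and 127 in MALC, against 112, 118 and 109 in suspension, overlapping groups and a change of 0.11 that did not pass (adjusted p = 0.186 by limma). DDX60, an interferon-induced gene, averaged 20.5 in MALC and 13.4 in suspension and DDX60L stayed at means of 14.6 to 33.6 over its 2 probe sets, all under the filter at a signal of 53.4 and not tested. Of 13 other genes of the RNA sensing pathway 4 rose and 2 fell, with a median log2 change of 0.093, while 19% of all genes tested were higher and 23.7% lower. IFIH1, the RNA sensor MDA5, was at 248, 262 and 263 in MALC, against 49.3, 92.9 and 76.3 in suspension. IFIH1 was thus dim in suspension, near the filter signal, and suspension 1 lay below it. The transcription factor gene IRF7 was at 398, 305 and 346 in MALC, against 107, 143 and 129 in suspension. OAS1, which makes the activator of RNase L, was at 332, 333 and 271 in MALC, against 79.4, 139.6 and 147 in suspension. Those 3 had groups far apart, with log2 changes of 1.65, 1.36 and 1.28 (adjusted p of 0.000456, 0.000323 and 0.00204 by limma). IFIT2 was the other that rose (1.18), TBK1 and MAVS fell (-0.36 and -0.19), and the interferon-induced genes ISG15 (0.13), IFIT1 (-0.047), IFIT3 (0.093) and MX1 (0.48) did not pass.

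Of the 4 members with no role assigned here, DHX40 had the largest rise among helicase genes, at 2211, 1926 and 1899 in MALC 1, 2 and 3, against 1568, 1531 and 1576 in suspension 1, 2 and 3. MALC 1 was the highest array, the groups did not overlap, and both kept probe sets rose (0.36 and 0.75 on the log2 scale). DDX59 was at 702, 799 and 773 in MALC, against 625, 617 and 642 in suspension, a change of 0.26 with no overlap. Its other probe sets gave 0.13 and -0.0086 and did not pass, and leaving out MALC 2, MALC 3, suspension 2 or suspension 3 ended the call (adjusted p 0.0593 to 0.095 by limma). The rises among helicase genes thus numbered 2 without any of these 4 arrays, when DHX40 and DDX17 passed. DHX57 fell with a log2 change of -0.24, but did not pass when MALC 2 (adjusted p = 0.0824), MALC 3 (0.103), suspension 1 (0.0735) or suspension 2 (0.0817) was left out, and DHX32 had a change of -0.077 that did not pass (adjusted p = 0.353 by limma, 0.05 with array weights, which called it lower). The germline genes DDX4, DDX25, DDX43 and DDX53 had probe set means of 11.2 to 19.8 in MALC and 11.7 to 20.9 in suspension, under the filter.

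**Figure D4:**
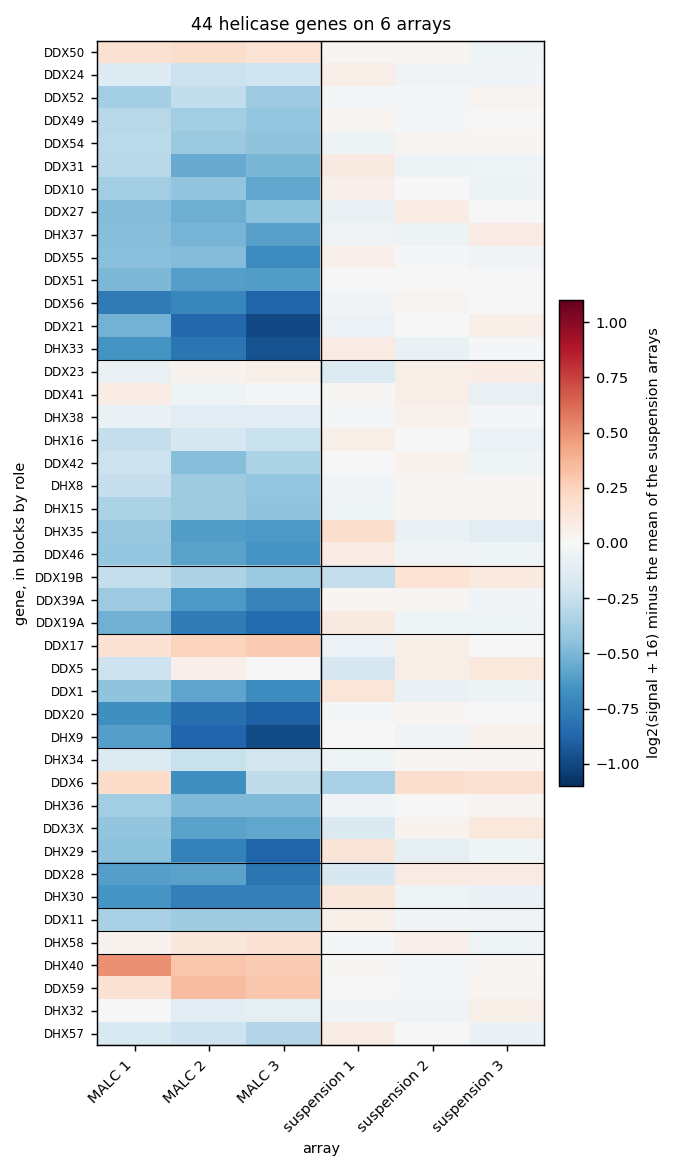
Log2(signal + 16) of the 44 helicase genes (rows, in blocks by role) on the 6 arrays (columns, MALC left), relative to the mean of the suspension arrays. MALC 1 is paler than MALC 2 and MALC 3 in most falling genes: it was the highest MALC array in 28 of 33, and MALC 3 the lowest in 26. The same counts over all genes are not given here. MALC 1 also stood apart across all kept probe sets (Pearson r 0.992 with MALC 2 and 0.991 with MALC 3, against 0.998 between MALC 2 and MALC 3).

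Probe sets of a gene agreed in direction where they passed the test. Of 100 kept helicase probe sets, 65 fell and 8 rose, while 41.7% of the 32768 kept probe sets were called, 20.4% lower and 21.2% higher (limma over probe sets). In the 32 genes with more than 1 kept probe set none had probe sets called both ways, all passed as lower in 17 and as higher in 1, and 13 held called and uncalled ones. The change differed by more than 0.5 between probe sets in 6 genes, among them DDX28 (-0.83 to -0.012), DDX56 (-0.79 and -0.048) and DDX17. With the mean of the kept probe sets the log2 change moved by over 1.5 times, with the call kept, in DDX51 (-0.32), DDX56 (-0.42), DHX30 (-0.31), DDX52 (-0.61), DDX17 (0.44) and DHX40 (0.55). The probe sets may detect different transcript forms or differ in background, which was not tested.

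**Figure D5:**
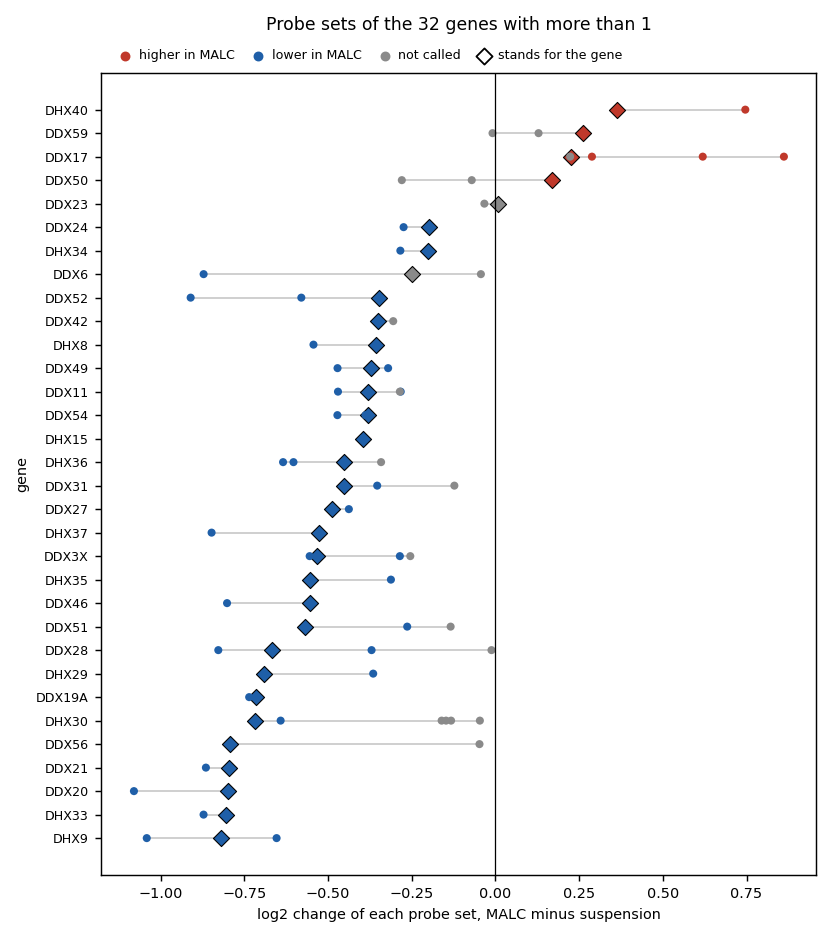
Log2 change of every kept probe set (MALC minus suspension) of the 32 helicase genes with more than 1, 1 row a gene, coloured by the call, with a diamond for the probe set that stood for the gene. Blue and red never share a row, while grey probe sets near 0 stand beside called ones in DHX30, DDX56 and DDX28.

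Genes that work with these helicases, or are RNA helicases of other families, are read against the 23.7% lower and 19% higher among all genes tested. Of 18 listed G-patch proteins, a family with members that switch on DEAH-box helicases, 17 were tested, 8 fell and none rose (limma; 1 higher at an unadjusted p under 0.05), with a median log2 change of -0.13. GPATCH4, a nucleolar member, had 1418, 1318 and 1096 in MALC, against 2885, 3050.1 and 2994 in suspension, a larger fall than any helicase gene (-1.22, adjusted p = 0.000253 by limma). PINX1, a nucleolar telomerase inhibitor, and GPATCH3 had changes of -0.60 and -0.52. Of 14 listed partners and inhibitors of DEAD-box proteins 11 were tested, 4 fell and 2 rose. EIF4G1, the scaffold that activates the DEAD-box protein eIF4A, was at 1147, 1125 and 997 in MALC, against 1965, 1967 and 1974 in suspension, and NOM1, a nucleolar partner of EIF4A3, had a change of -0.55. PDCD4, an inhibitor of eIF4A, was at 245, 353 and 339 in MALC, against 55.7, 82.9 and 71.3 in suspension, a rise of 1.93 (adjusted p = 0.000283 by limma). PDCD4 was dim in suspension, near the filter at a signal of 53.4. Of the same list EIF4B also rose (0.24, adjusted p = 0.008 by limma), and EIF4G2 and EIF4H fell (-0.34 and -0.19). Of 19 other RNA helicases 15 were tested, 7 fell and 2 rose, the sensor gene IFIH1 among them, with a median of -0.12. ASCC3, a helicase of ribosome quality control, had a change of -0.64, and ZNFX1, an RNA sensor at mitochondria, -0.74, with signals of 374, 381 and 369.5 in MALC, against 462, 767 and 729.5 in suspension in which suspension 1 stood low.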

How the data were processed

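Total RNA of 3 MALC and 3 suspension samples was measured on Affymetrix U133 Plus arrays. The authors deposited a linear intensity for each probe set on each array. The submitters' processing notes name MAS5 and no other tool; how background and normalization were handled is not given in the sources used here. If arrays had been scaled to each other, a shift of all transcripts would not be seen. Groups came from the sample titles. Symbols were those of the platform annotation (41091 probe sets with 1 symbol, 1801 with several, 11721 with none), updated through Entrez identifiers with a RefSeq table (GRCh38.p14), which held 41037 of them.

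A pseudocount of 16 was added to each intensity before taking log2. Probe sets at or above the 40th percentile of the mean were kept, and each gene was represented by its brightest probe set. MALC and suspension were compared by limma 3.58.1 in R 4.3.3, with lmFit and a trended eBayes, two-sided, and Benjamini-Hochberg adjustment over all genes or probe sets at 0.05. The fit was tested on simulated data. Pairs of related genes were compared by exact permutation (scipy 1.17.1). Members, roles and lists were chosen with earlier results of these data known. Any member may be named by its symbol. Of other lists, up to 3 called genes with the largest change were chosen, and further genes of some lists were named beside them. Same-numbered samples deviated together from their group means (r = 0.28 for number 1, 0.18 for number 2, 0.19 for number 3), so the number entered as a block in an alternative. Crossed numbers 2 and 3 gave 0.15 and 0.2, and what the numbers stand for is not in the labels.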

Additional observations from a re-analysis of the deposited data

How the results depend on the processing

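The counts of helicase genes that fell (33) and rose (4) were within 1.5 times under pseudocounts of 1 and 64, quantile normalization, median centring, no filter and the filter at the 60th percentile, without trend, with array weights and without both arrays numbered 1. With the replicate block 32 fell and 4 rose among genes, the block changed no other member's call than that of DDX19B, and 6396 genes were called in all. With the mean of the kept probe sets 2 helicase genes rose. Without _s_at and _x_at probe sets, 33 helicase genes were tested in place of 44. Of these 21 (63.6%) fell and 1 rose, while 2360 (21.6%) of all 10946 genes tested were lower and 2037 higher. Among helicase probe sets 29 fell and 2 rose. With array weights 8880 genes were called, against 5877. Without suspension 2 and 3 there were 2855 genes called, 20 helicase genes lower and 1 higher, and 38 probe sets lower and 4 higher; without MALC 2 and 3 there were 2083, 19 and 1, and 32 and 3, with fewer samples. Leaving out 1 array gave 2 to 4 helicase genes higher and 28 to 33 lower, with 15.3% to 26.4% of all genes tested lower. Helicase probe sets numbered 5 to 9 higher and 51 to 66 lower, and 3993 to 6491 genes were called. DDX50 turned to a log2 change of -0.060 with the mean over its probe sets. Where _s_at and _x_at probe sets were dropped and a dimmer one stood for the gene, DDX50 was at -0.28 and DDX59 at -0.0086. Of 37 called helicase genes 30 kept the call without any single array. The number of arrays, not counts, limits the precision, and no detection calls were used.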

Other observations

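The falls of the helicase genes were smaller between the arrays numbered 1 than between those numbered 2 or 3. The median MALC minus suspension difference over the 44 genes was -0.35 on the log2 scale for number 1, -0.46 for number 2 and -0.46 for number 3. The same medians over all genes are not given here. Across probe sets, however, MALC 1 correlated more closely with suspension 1 than MALC 2 with suspension 2 or MALC 3 with suspension 3. The smaller falls for number 1 are therefore not shown to be particular to the helicase genes. Of the 33 genes that fell, 32 were lower in MALC within number 1 and 33 within numbers 2 and 3. The exception was DDX19B. In 32 of the 33 genes the groups did not overlap, which fixes the sign within every number, so these counts add nothing to the calls. These differences within numbers were not tested.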
